A study of Mus musculus with 28 samples.

Results

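The Reg family of the mouse (regenerating islet-derived genes) was followed in mice that express human APOBEC3B, a cytidine deaminase, under doxycycline. The members were the 6 genes Reg1, Reg2, Reg3a, Reg3b, Reg3d and Reg3g, chosen by name, of 35858 gene symbols quantified in the pancreas. All 6 were among the 19123 genes whose counts were high enough to be tested there. Pancreas and liver RNA came from one set of 16 samples (set 2, with 6 A3B and 2 control samples of each tissue), and livers and lungs from a second set of 12 samples (set 1, with 3 A3B and 3 control samples of each tissue).

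A3B mice carried the A3B-tGFP fusion behind a tetracycline operator at the ColA1 locus together with CAGs-rtTA3, a transactivator driven by a ubiquitous promoter, so the transgene was not restricted to acinar cells. Control littermates lacked one of these transgenes. All mice were adult, put on doxycycline food at 4 weeks of age, and all samples of set 2 were labelled 10 days on the diet, although the study in one place calls the controls of the RNA comparison untreated. Groups were taken from the sample titles. The genotype labels go against the titles for 4 pancreases of set 2: A3B 44 and A3B 137 are labelled with the A3B transgene alone, and control 45 and control 168 with both transgenes, while the livers of these same 4 mice carry the genotype that fits their title. The transgene's own transcript was not analysed here. In the share of counts taken by acinar genes, A3B pancreases 44 and 137 (20.8% and 15.2%) lay with the other A3B pancreases (9.43% to 19.1%) and apart from controls 45 and 168 (50.7% and 47.5%). In set 1 the A3B mice were labelled 10 or 14 days on doxycycline and the controls 15 days, control liver 11 is labelled with both transgenes and control lung 87 with CAGs alone. In set 2, mice 44, 49, 125, 137, 153, 45 and 168 gave both tissues, mouse 53 a pancreas only and mouse 48 a liver only.

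Total estimated counts ranged from 74836907 to 87633469 in A3B pancreases and were 87288183 and 95604352 in control pancreases 45 and 168. A list of 26 acinar genes (digestive enzymes and their cofactors) took 50.7% and 47.5% of the counts in control pancreases 45 and 168, and 9.43% to 20.8% in the A3B pancreases. Values of the other genes depended on the scaling between libraries. The normalization used for testing (TMM, which sets the bulk of genes equal) gave factors of 0.2096 and 0.4428 for the controls and 1.298 to 1.792 for the A3B pancreases, and with it the middle gene of all those tested had a log2 fold change of 0.093, against 2.29 when counts were scaled by their totals and 1.61 when the totals left out the acinar list and the Reg genes. Levels below are in TPM (abundance corrected for transcript length and for the library total), and fold changes and tests are from edgeR with TMM unless another scaling is named. Hepatocyte genes summed to 46964 to 166013 TPM in the livers of set 2 and to at most 1168 TPM in the pancreases. In set 1, Sftpc of alveolar type II cells reached 1422 to 1873 TPM in lungs and at most 0.664 TPM in livers, while Alb of hepatocytes was at 986 to 2037 TPM in livers and 0.331 to 245 TPM in lungs.

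REG proteins are small secreted proteins with a single C-type lectin fold. Reg1 was found in regenerating islets and is a normal product of acinar cells, and Reg2 is its mouse paralogue. Reg3 members are acute-phase secretory products of the inflamed exocrine pancreas and antibacterial lectins of the intestinal epithelium, induced through cytokine receptors that signal by STAT3 and, in the gut, through MyD88. The 6 genes lie together on chromosome 6 (GRCm38, GENCODE M21) within 98.2 kb, with no other protein-coding gene between them. In order they are Reg3b at chr6:78370657-78373466 (plus strand), Reg3d at chr6:78375874-78378865 (minus), Reg3a at chr6:78380709-78383827 (plus), Reg2 at chr6:78395623-78408106 (plus), Reg1 at chr6:78422711-78428667 (plus) and Reg3g at chr6:78466269-78468872 (minus). The nearest protein-coding neighbour before the cluster, Ctnna2, a neuronal catenin, lies 390958 bp away and did not exceed 0.0588 TPM in any pancreas. The nearest one after it, Gm20594, lies 1349044 bp away and was at 62.4 to 230 TPM in A3B pancreases and 226 to 323 TPM in controls (log2 fold change -3.76, edgeR adjusted p = 0.0005437).

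In A3B pancreases, 4 of the 6 members (Reg2, Reg3a, Reg3b and Reg3g) were higher than in controls by 3.996 to 4.83 on the log2 scale, Reg1 was lower by the same test, and Reg3d did not pass (edgeR, Benjamini-Hochberg adjusted p under 0.05 over all genes). Over all genes tested, 31.9% were called, 17% higher and 14.9% lower. In TPM every A3B pancreas was above both controls for all 6 members, but so was it for 70.8% of all genes tested. Summed over the family, control pancreases 45 and 168 held 13625 and 15057 TPM, and the A3B pancreases 61185 to 110510 TPM with a mean of 85959 ± 20711 (SD, n = 6). The family thus took 1.36% and 1.51% of the TPM of the controls and 6.12% to 11.1% of that of the A3B pancreases. The samples of a group are separate mice, and with 2 control mice the spread among controls rests on a single difference.

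**Figure D1:**
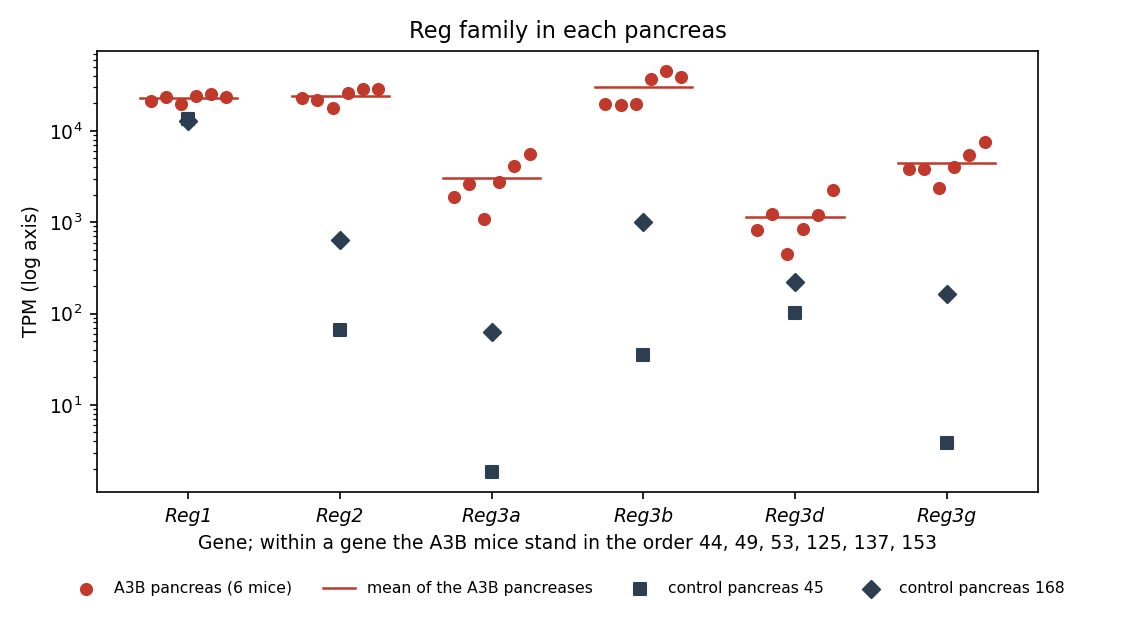
TPM (log axis) of the 6 Reg genes in each pancreas of set 2, with red points for the 6 A3B mice, a red line for their mean, a square for control 45 and a diamond for control 168. Both controls lie close together for Reg1 (13416 and 12958 TPM) and far apart for Reg2, Reg3a, Reg3b and Reg3g, where control 168 is the higher, and every red point is above both controls for each gene.

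Reg1, the acinar secretory member also known as lithostathine or pancreatic stone protein, was abundant in every pancreas. It stood at 13416 TPM in control 45 and 12958 TPM in control 168, and at 21434, 23219, 19700, 23910, 25338 and 23751 TPM in A3B mice 44, 49, 53, 125, 137 and 153. The lowest A3B pancreas was thus 1.47 times the higher control, and the 2 controls differed by a factor of 1.035. On the TMM scale the order turned over: Reg1 was at 38230 and 15960 CPM (counts relative to the scaled library total) in controls 45 and 168 and at 6977 to 10660 in A3B pancreases, a log2 fold change of -1.63 (SE 0.42, edgeR adjusted p = 0.01495). With counts scaled by their totals the fold change was 0.77 (edgeR adjusted p = 0.04216), and with library sizes taken without the acinar list and the Reg genes it was 0.087 (edgeR adjusted p = 0.8133). Against the median gene of each scaling Reg1 lay at -1.73, -1.51 and -1.53. It was thus below the typical gene in each of these 3 scalings, and its sign depended on the reference. The scalings differ only in library sizes, so these 3 distances are not independent of each other. Without control 45 the fold change was -0.85 and was not called.

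Reg1 stood apart from most acinar products. Of the 26 acinar genes tested, 22 were called lower in A3B pancreases, with a median log2 fold change of -3.77, and only Ctrb1 and Try5 of the 26 had a fold change above that of Reg1; with counts scaled by their totals 16 were lower and 2 higher. Amy2a5 (pancreatic amylase) was at -7.20, Cela2a (elastase) at -5.26 and Clps (colipase) at -4.83. For each 1000 TPM of the acinar list there were 25.1 and 25.5 TPM of Reg1 in controls 45 and 168 and 71.4 to 158 TPM in A3B pancreases. The groups did not overlap, but on this scale, whose denominator was itself lower in A3B pancreases, 83.5% of all genes tested lay above both controls in every A3B pancreas. In bulk tissue, fewer acinar cells and less acinar RNA per cell cannot be told apart.

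Reg2, the paralogue of Reg1, had the widest gap between the groups of the 6 members. It was at 66.4 TPM in control 45 and 634 TPM in control 168, and at 23174, 21725, 17727, 26125, 28828 and 28608 TPM in A3B mice 44, 49, 53, 125, 137 and 153. The lowest A3B pancreas held 28.0 times the TPM of the higher control, and the A3B mice differed among themselves by a factor of 1.626. The log2 fold change was 4.27 (SE 0.71, edgeR adjusted p = 0.001694), and Reg2 was the single member called in a fit over all 16 samples of set 2, which shares one estimate of the spread with the livers. By rank of TPM within a sample, Reg2 moved from places 381 and 145 in controls 45 and 168 to places 3 to 5 in the A3B pancreases.

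Reg3b, the pancreatitis-associated protein of the mouse, was the most abundant member in 4 of the 6 A3B pancreases. It stood at 35.1 TPM in control 45 and 1013 TPM in control 168, and at 19829, 19242, 19864, 36677, 45504 and 39097 TPM in A3B mice 44, 49, 53, 125, 137 and 153. The last 3 of these were above the first 3, and in them Reg3b was the second most abundant gene of the sample after Ctrb1 (chymotrypsinogen). Its log2 fold change was 4.11 (SE 1.04, edgeR adjusted p = 0.01321).

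Reg3g, the bactericidal lectin best known from the gut, was at 3.85 TPM in control 45 and 165 TPM in control 168. A3B mice 44, 49, 53, 125, 137 and 153 held 3857, 3816, 2343, 3982, 5514 and 7529 TPM. The groups did not overlap, and the lowest A3B pancreas was 14.2 times the higher control. The log2 fold change was 3.996 (SE 1.09, edgeR adjusted p = 0.02069), and without the A3B pancreases 44 and 137, whose genotype label goes against the title, it was 3.89 with an adjusted p of 0.0632.

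Reg3a, a less abundant secreted member of the same class, was at 1.85 TPM (105 estimated counts) in control 45 and 62.8 TPM in control 168. It was at 1888, 2652, 1098, 2768, 4132 and 5625 TPM in A3B mice 44, 49, 53, 125, 137 and 153. It was the lowest member in both controls, and in A3B mice it stood above Reg3d and at 0.469 to 0.749 times Reg3g, with a log2 fold change of 4.83 (SE 1.19, edgeR adjusted p = 0.01415), the largest of the 6.

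Reg3d, also called islet neogenesis-associated protein-related protein, was at 102 TPM in control 45 and 225 TPM in control 168 and at 830, 1225, 453, 841, 1195 and 2251 TPM in A3B mice 44, 49, 53, 125, 137 and 153. The lowest A3B pancreas was 2.02 times the higher control. On the TMM scale the groups overlapped, with 291 and 276 CPM in controls 45 and 168 and 166 to 914 in A3B pancreases, and the log2 fold change of 0.63 (SE 0.53) did not pass (edgeR adjusted p = 0.3881). It was called higher, at 2.81, with counts scaled by their totals (edgeR adjusted p = 0.002176), a scaling that called 70.5% of all genes higher. Relative to the median gene it was at 0.54 and 0.53 with these 2 scalings.

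**Figure D2:**
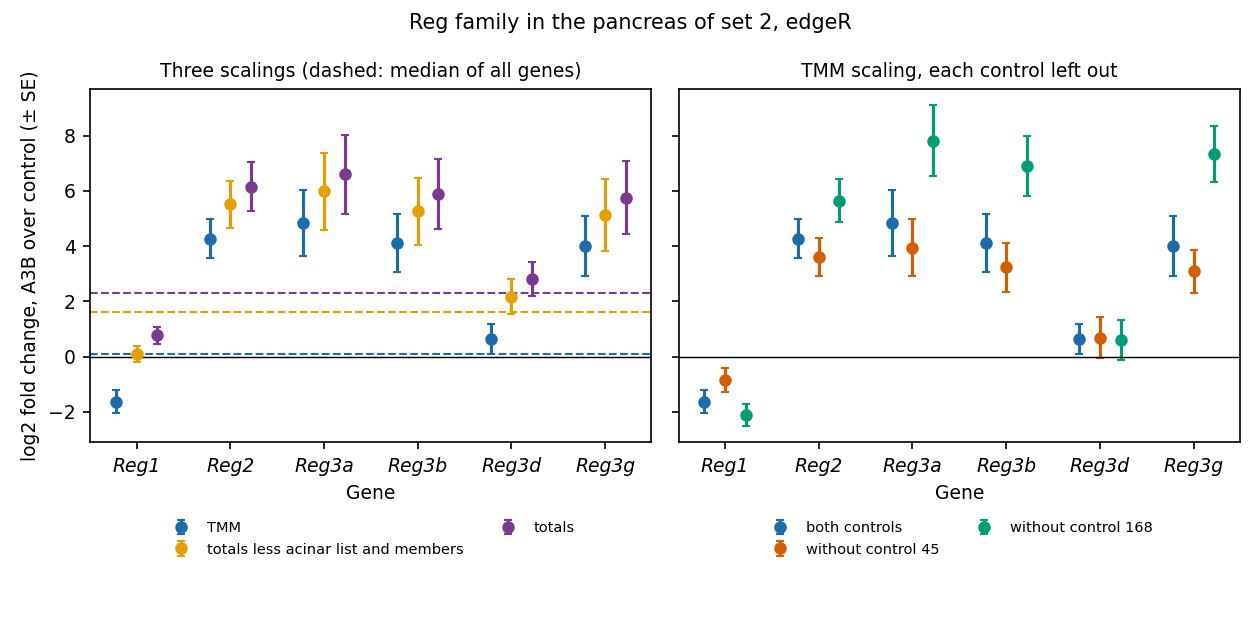
Log2 fold changes (A3B over control, points, with SE as bars) of the 6 Reg genes in the pancreas by edgeR. On the left are the 3 scalings, each with the median of all genes as a dashed line, and on the right the TMM fit with both controls and with each control left out; Reg1 is below the dashed line of its scaling each time (-1.63 against 0.093 with TMM), and Reg2, Reg3a, Reg3b and Reg3g are above it.

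In TPM the 2 controls were alike in Reg1 and in little else of the family. Control 168 exceeded control 45 in TPM by a factor of 2.21 for Reg3d, 9.55 for Reg2, 28.9 for Reg3b, 33.9 for Reg3a and 42.7 for Reg3g. On the TMM scale they were alike in Reg3d (291 CPM in control 45, 276 CPM in control 168) and not in Reg1, and lay closer in Reg2 (167 and 689 CPM) and Reg3g (11.0 and 209.5 CPM) than in TPM. The size of the difference therefore depended on which control it was read against: in TPM the A3B mean of Reg3g was 1170 times control 45 and 27.4 times control 168, that of Reg3b 856 and 29.6 times, that of Reg3a 1636 and 48.2 times, and that of Reg2 367 and 38.5 times. Leaving out control 168 raised the log2 fold change of Reg3a to 7.82 and of Reg3g to 7.34, and leaving out control 45 lowered them to 3.94 and 3.09. The same 4 members were called higher in both fits.

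The mice also differed in 4 genes of the Y chromosome, and the labels used here give no sex. Their sum was at 34.3 to 50.9 TPM in the pancreases of A3B mice 125, 137 and 153 and 13.7 TPM in that of control 168, against 0.244 to 0.823 TPM in those of A3B mice 44, 49 and 53 and 0.244 TPM in that of control 45. The 3 A3B pancreases with the higher sum were those with the most Reg3b, and they also exceeded the other 3 for Reg1, Reg2, Reg3a and Reg3g, but not for Reg3d. With this difference (a sum above or below 1 TPM) as a covariate, edgeR called the same 4 members higher, with log2 fold changes of 4.48 for Reg2, 5.42 for Reg3a, 4.67 for Reg3b and 4.64 for Reg3g (adjusted p = 0.001247 to 0.005521), and Reg1 lower (-1.63, adjusted p = 0.02912).

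Control 168 also held some transcripts known from intestinal epithelium, a tissue in which Reg3b and Reg3g are normally abundant. A list of 16 intestinal genes summed to 666 TPM there, against 6.21 TPM in control 45 and 65.0 to 157 TPM in the A3B pancreases. Tff3 of goblet cells was at 379 TPM in control 168, 0.421 TPM in control 45 and 2.09 to 25.5 TPM in A3B pancreases, and Lgals4 was at 176, 3.13 and 7.78 to 40.7 TPM in the same order. Muc2, the defining goblet cell mucin, was at 4.44 TPM in control 168 and at most 0.245 TPM elsewhere. Reg4, the family member encoded outside the cluster (chr3:98222156-98236748, GRCm38) and known from the gut, was at 13.9 TPM in control 168, at 0 in control 45 and at most at 0.282 TPM in A3B pancreases (log2 fold change -7.07, edgeR adjusted p = 0.005115, a value that rests on control 168). Of the absorptive enterocyte genes of the list, Sis, Lct and Apoa4 were at 0 and Alpi at 0.0054 TPM in control 168. In A3B pancreases they reached 3.18, 0.326, 15.4 and 9.51 TPM, and in control 45 they were at 0.0786, 0.0059, 0.575 and 0.0647 TPM. Fabp2 was at 7.28 TPM in control 168, 0.757 TPM in control 45 and 0.586 to 16.3 TPM in A3B pancreases. Of 5 Paneth cell genes tested 0 were called higher and 1 lower, Lyz1. Defa24 of Paneth cells was at 0 in both controls and at 0.120 to 13.7 TPM in A3B pancreases (8.79, edgeR adjusted p = 0.08974). Krt20, Vil1 and Slc5a1 were at 4.68, 4.16 and 1.28 TPM in control 168, above control 45 (0.206, 0.182 and 0.441 TPM) and below every A3B pancreas (22.4 to 68.9, 8.23 to 27.7 and 2.23 to 5.94 TPM). The genes of B cells (439 against 11.9 TPM) and fat (671 against 54.3 TPM) were also more abundant in control 168 than in control 45. Their part in the Reg levels of control 168 was not tested. Genes of stomach epithelium were higher in the A3B group instead, with a sum of 42.5 to 320 TPM against 1.63 and 1.89 TPM in controls 45 and 168. Of 7 tested 2 were called higher, Tff1 (2.30, edgeR adjusted p = 0.01113) and the mucin Muc5ac, which was at most at 0.349 TPM and at 0 in both controls, and Gkn3, the largest part of the sum in mouse 125 at 297 TPM, was not called. Fewer were called with either control left out, and the part of such cells in the Reg levels was not tested. The summed intestinal genes of the A3B pancreases lay between those of the 2 controls, but Krt20, Vil1 and Slc5a1 lay above both. The sum alone therefore does not tell how much intestinal tissue a sample held.

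The make-up of the family differed between the groups together with its total. In controls 45 and 168 Reg1 made up 98.5% and 86.1% of the family's TPM. In the A3B pancreases it made up 22.2% to 32.3%, beside 26.1% to 32.6% for Reg2 and 26.8% to 41.2% for Reg3b. Reg3g contributed 3.83% to 7.05%, Reg3a 1.79% to 5.26% and Reg3d 0.740% to 2.11%. The share of Reg3d in the controls, 0.747% and 1.49%, fell within the range of the A3B mice, and it was the single member of which this held.

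**Figure D3:**
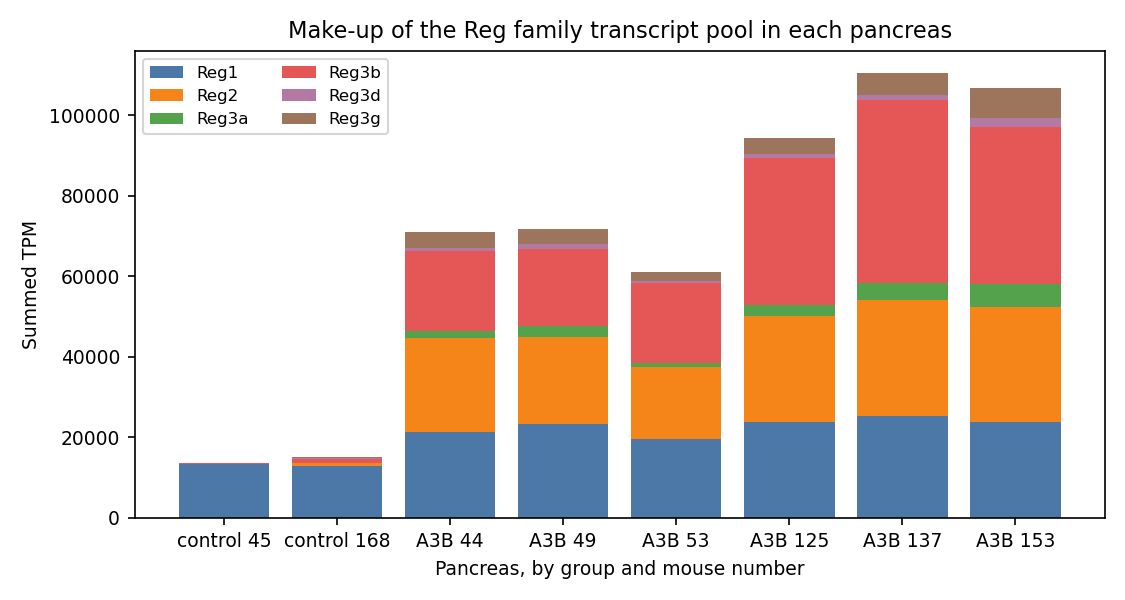
Summed TPM of the Reg family in each pancreas of set 2, stacked by gene, for controls 45 and 168 and the 6 A3B mice. The control bars reach 13625 and 15057 TPM and are almost wholly Reg1; the A3B bars reach 61185 to 110510 TPM and are mostly Reg1, Reg2 and Reg3b.

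Among the 6 A3B mice some members kept close to each other. The ratio of Reg1 to Reg2 spanned only a factor of 1.34, from 0.830 to 1.11, while it was 202 in control 45 and 20.5 in control 168. Reg3a, Reg3d and Reg3g formed a second group: the ratios of Reg3a to Reg3g and of Reg3a to Reg3d each spanned a factor of 1.60, and mouse 153 was highest and mouse 53 lowest in all 3 genes. The widest span among the 15 pairs was that of Reg1 to Reg3a, a factor of 4.25. The ratio of Reg3b to Reg3g was 5.04 to 9.21 in A3B mice and 6.16 to 9.11 in the controls, so that these 2 members kept their proportion in the control samples as well, though at levels lower by over an order of magnitude. The ratio of Reg3a to Reg3g also overlapped, at 0.382 to 0.480 in controls and 0.469 to 0.749 in A3B mice, whereas that of Reg3d to Reg3g was 1.37 to 26.4 in controls and 0.193 to 0.321 in A3B mice. With these few mice the ratios are a description.

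One transcript carried most of each gene in the pancreas. Reg2-201 made up 99.9% or more of Reg2 in each A3B pancreas and 99.0% or more in controls, and Reg3g-201 99.4% or more in each A3B pancreas. For Reg1, Reg1-202, which starts 3.212 kb before Reg1-201, was estimated at 2.10% to 3.92% of the gene in A3B pancreases and at 9.09% and 10.0% in the controls, without overlap. In TPM it was also lower, at 449 to 931 against 1220 and 1299. Reg3d-202 likewise took 2.63% to 4.58% of Reg3d in A3B pancreases and 6.82% and 9.64% in the controls, but it has no word of its own among the Reg3d transcripts. Reg1-201 has no 31-base word (the length kallisto matches) that the other Reg1 transcripts lack, and Reg1-202 has 21, so the split rests on few positions. Between members the words were almost entirely distinct: Reg3b and Reg3g shared 5, and no other pair shared any, so that reads could rarely have been credited to the wrong member.

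In the livers of set 2 the family was low, and its make-up split the A3B livers. Reg2 was at 1.93 TPM in control 45 and 0.847 TPM in control 168, and at 36.1, 4.52, 11.4, 15.9, 73.1 and 14.6 TPM in A3B mice 44, 49, 125, 137, 153 and 48. Every A3B liver was above both controls, as for 24.3% of all genes tested in the liver. The log2 fold change was 3.88 (SE 1.06), which missed the threshold in edgeR (adjusted p = 0.07217). No member was called in the liver, where 3.66% of all genes were called (1.26% higher, 2.41% lower), and 1 of the 6, Reg2, had an unadjusted p below 0.05. DESeq2 called Reg2 higher, at 3.80 (adjusted p = 0.0002334), as did edgeR with counts scaled by their totals, which called 5.06% of all genes higher.

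In 4 of the 6 A3B livers Reg2 was assigned to another transcript than in the pancreas. In A3B livers 49, 125, 137 and 48 all of Reg2 was assigned to Reg2-202, at 4.52, 11.4, 15.9 and 14.6 TPM (139 to 529 estimated counts), and Reg2-201 was at 0. Reg2-202 starts at chr6:78395623, 9.535 kb before Reg2-201 at chr6:78405158, with a first exon of its own. A3B livers 44 and 153 held Reg2-202 at a like level, 18.9 and 16.7 TPM, and in addition 17.2 and 56.4 TPM of Reg2-201, which was 47.6% and 77.1% of their Reg2. The control livers 45 and 168 had 1.73 and 0.847 TPM of Reg2-202. In the pancreas too Reg2-202 was higher in each A3B mouse (3.52 to 19.8 TPM) than in controls 45 and 168 (0.635 and 0.514 TPM), although it was at most 0.076% of Reg2 in an A3B pancreas. Over all genes tested, 70.8% in the pancreas and 24.3% in the liver were likewise higher in TPM in every A3B sample than in both controls. Of the 250 words that set Reg2-202 apart from Reg2-201, 73 (29.2%) also occur in 3 other annotated genes (4930544I03Rik, AC154172.2 and Gm48309) that have no entry in the tables, and their part in the counts was not tested.

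The other 5 members were seen in A3B livers 44 and 153 and hardly elsewhere. In these 2 livers Reg1 was at 24.2 and 67.0 TPM, Reg3b at 27.4 and 70.1 TPM, Reg3g at 7.01 and 12.1 TPM, Reg3a at 5.46 and 14.0 TPM and Reg3d at 2.60 and 6.08 TPM. In A3B livers 49, 125, 137 and 48 Reg1 was at most at 0.275 TPM and Reg3b at most at 0.0533 TPM, and Reg3a, Reg3d and Reg3g had no count, which allows up to 3 counts a library (0.0349 to 0.0460 CPM; counting error only). All of the Reg1 in A3B livers 49, 137 and 48 and control liver 168 was assigned to Reg1-203, of whose 134 own words 51 (38.1%) also occur in 57 other genes. Control liver 45 held 1.05 TPM of Reg1 and 0.470 TPM of Reg3b.

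The same 2 livers held acinar transcripts. The acinar list summed to 422 TPM in A3B liver 44 and 891 TPM in A3B liver 153, against 14.7 to 41.5 TPM in the other A3B livers and 156 and 81.3 TPM in control livers 45 and 168. Set against the pancreas of the same mouse, liver 44 held 0.113% to 0.314% of each Reg member and 0.140% of the acinar list, and liver 153 held 0.161% to 0.282% of each member and 0.366% of the list. In livers 49, 125 and 137 the acinar list was at 0.00914% to 0.0102% of the same mouse's pancreas, Reg1 at 0.00115% or less, and Reg2 at 0.0208% to 0.0553%. The part of pancreatic RNA in livers 44 and 153 was not tested; without both livers the log2 fold change of Reg2 in the liver was 2.85 (edgeR adjusted p = 0.1381).

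**Figure D4:**
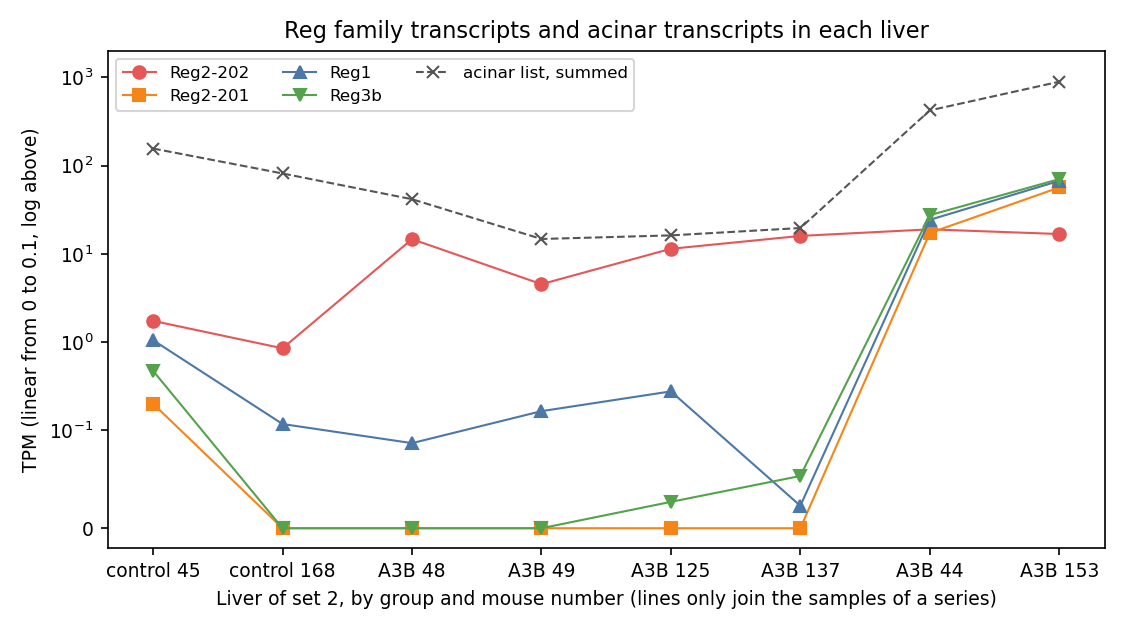
TPM of Reg2-202, Reg2-201, Reg1, Reg3b and the summed acinar list in each liver of set 2 (axis linear from 0 to 0.1 and logarithmic above; lines only join the points of a series). Reg2-202 is at 4.52 to 18.9 TPM in all 6 A3B livers and below 2 in both controls, while Reg2-201, Reg1 and Reg3b are highest, with the acinar list, in livers 44 and 153 and lower in the other livers, of which control 45 has the most Reg1 (1.05 TPM) and Reg3b (0.470 TPM).

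An interaction term over all 16 samples tested whether a member responded to A3B differently in pancreas than in liver. No member was called by edgeR, none had an unadjusted p below 0.05, and DESeq2 called none of the 5 members it gave a p for, while 6.87% of all genes had a positive and 5.03% a negative difference. For Reg2 the difference (pancreas minus liver, log2) was 0.53 (SE 1.14, edgeR adjusted p = 0.8003). With the mouse as a replicate block, the paired fit, no member was called either, and Reg3a, Reg3b and Reg3g turned from -0.95, -1.46 and -1.99 to 3.39, 4.17 and 2.35 (edgeR adjusted p = 0.6578, 0.6909 and 0.7805), so the sign of these differences was not settled. Without A3B livers 44 and 153 the differences of Reg3a and Reg3b were positive as well and were called (edgeR adjusted p = 0.0495 and 0.0203). The other A3B livers held Reg3a and Reg3b at or near 0 counts, so the size of those 2 differences depends on the prior count and is not a measured fold.

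In set 1 the family was close to absent from liver and, but for Reg3g, from lung. In A3B livers 23, 28 and 70 Reg1 was at 1.54, 3.48 and 0 TPM and Reg3b at 1.65, 0.473 and 0 TPM. Of the control livers only control 11 had any member, Reg3b at 0.194 TPM. No member reached a mean of 1 TPM over the livers of set 1, so none was tested, and 7.93% of the genes tested there were called. The Reg2 level of the livers of set 2 was not found in set 1, where Reg2 was at 1.07 TPM in A3B liver 23 and at 0 in the other 5 livers, but the tables of set 1 give no transcripts and were made separately.

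Reg3g was the member of the lung. It was at 4.85, 12.6 and 9.80 TPM in control lungs 87, 88 and 91 and at 1.70, 33.7 and 2.29 TPM in A3B lungs 69, 70 and 74. The A3B lungs lay on both sides of the controls, and the difference of -0.49 on the log2(TPM + 1) scale (SE 1.09) did not pass (limma adjusted p = 0.7511), where 36.8% of all genes did. Without A3B lung 70 it was -1.67 (limma adjusted p = 0.0325). The other 5 members did not exceed 1.64 TPM in any lung.

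The STAT3 axis, through which interleukin-6-type cytokines and interleukin-22 induce Reg3 genes, was read in the same pancreas fit from gene lists, with the median of all genes at 0.093. Of 9 cytokine genes tested 1 was higher, Lif (leukemia inhibitory factor), at 8.45 ± 2.77 TPM (SD, n = 6) in A3B pancreases against 0.156 and 0.155 TPM in the controls (log2 fold change 4.02, edgeR adjusted p = 0.0002977). Il6 was at 0.160 to 0.862 TPM in A3B pancreases and at 0 and 0.351 TPM in controls (-0.25, edgeR adjusted p = 0.8674), and Il22 was listed at 0 in every pancreas. Of 9 receptor genes 3 were higher and 1 lower, with Osmr, the oncostatin M receptor, at 2.02 (edgeR adjusted p = 0.001495) and Il11ra1 at -1.02.

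Of 7 kinases and factors 4 were higher and none lower (17% of all genes tested were higher and 14.9% lower, which is also the background of the list counts that follow). Stat3 itself was at 1.89 and 10.3 TPM in controls 45 and 168 and at 44.4 to 89.8 TPM in A3B pancreases (log2 fold change 1.59, edgeR adjusted p = 0.003353). Of 16 targets and feedback genes 9 were higher and 2 lower, with a median of 1.42. Socs3, the feedback inhibitor induced by STAT3, rose by 3.20 (44.2 ± 9.9 TPM in A3B pancreases, 0.403 and 1.93 TPM in controls, edgeR adjusted p = 0.0005437), Junb by 2.77 and Cebpb by 2.22, while Vegfa fell by 1.64. With counts scaled by their totals, 70.5% of all genes were higher. There 9 of 9 receptors and 14 of 16 targets were higher and 0 lower, so that neither Vegfa nor Il11ra1 was called lower. The medians of the 4 STAT3 lists (cytokines, receptors, kinases and factors, targets) lay 0.38, 0.85, 0.72 and 1.18 above that of all genes. With TMM but without control 168 the 4 medians were 4.12, 1.01, 1.18 and 1.69, with all genes at 0.31. Without control 45 they were 0.11, 0.64, 0.70 and 1.005, with all genes at 0.17, so the cytokine median then lay below that of all genes.

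Of 15 genes of the interleukin-17 and MyD88 axis 6 were higher and 1 lower, led by Tnfrsf1a (2.34), Tlr2 (2.14) and Myd88 (1.86, edgeR adjusted p = 0.0008493). Extl3, a candidate receptor of REG proteins, did not pass (-0.60, edgeR adjusted p = 0.1357), but it was called higher, at 1.72, with counts scaled by their totals, and was at 17.8 to 33.6 TPM in A3B pancreases against 5.80 and 8.28 TPM in controls. Of 20 genes known to respond in pancreatitis 7 were higher and 3 lower: Lcn2 (lipocalin 2) went from 3.01 and 3.28 TPM in controls to 3348 to 11171 TPM in A3B pancreases (log2 fold change 8.81, edgeR adjusted p = 0.0002642) and Timp1 rose by 3.88, whereas the acinar products Spink1 and Tff2 fell by 4.61 and 5.70. Of 13 other antimicrobial secreted proteins 2 were higher, the defensin Defb1 (4.71) and lactoferrin, Ltf (4.35, edgeR adjusted p = 0.0251, named after its value was seen), and 4 were lower. The acinar lectin Zg16 was at -3.36, and Lyz1 and Reg4 at -2.17 and -7.07. The fold change of Reg4 rests on control 168. Lyz1 was at 2.82 TPM in control 45, 21.5 TPM in control 168 and 5.63 to 17.8 TPM in A3B pancreases. Its fold change is on the TMM scale, which sets the controls higher relative to the A3B pancreases than TPM does. The medians of the interleukin-17, pancreatitis and antimicrobial lists were 0.73, 0.77 and -0.17, with all genes at 0.093. Without control 168 they were 1.95, 1.91 and 2.74, with all genes at 0.31. Without control 45 they were 0.61, 0.79 and -0.55, with all genes at 0.17. With counts scaled by their totals 12 genes of 15 were higher and 0 lower, 12 and 3 of 20, and 6 and 2 of 13.

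Genes of other cell types were followed as well. All 10 macrophage genes tested were higher in A3B pancreases, with a median of 3.18 (summed 1335 to 3475 TPM against 18.8 and 84.1 TPM in controls 45 and 168), as were 6 of 9 fibroblast and 7 of 13 ductal genes. Of 18 endocrine genes 0 were higher and 6 lower, which turned to 8 higher and 0 lower with counts scaled by their totals. Of 10 neutrophil genes 1 was higher, Csf3r (2.20), and 1 lower, Ly6g (-5.15, edgeR adjusted p = 0.00744), which was at 0 in control 45 and 6.097 TPM in control 168 (both named after their values were seen). None of 10 T cell, 9 B and plasma cell and 7 adipocyte genes was called by edgeR with either TMM or totals (with TMM, 1 had an unadjusted p below 0.05, Retn of adipocytes at 0.02277), and their medians were -1.16, -2.05 and -2.55 with TMM and 0.78, -0.14 and -0.58 with totals. Without control 168 those medians were 3.60, 2.01 and -0.14 with TMM. Without control 45 they were -2.09, -2.98 and -3.49, so the sign for T cells and B cells depended on the control used. The part of these cells in the Reg levels was not tested.

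The genes outside the family whose levels were most like those of a member over the 8 pancreases were found by Pearson r of log2 CPM over 6619 genes. Reg2 was nearest to Tbl1x (0.99; 0.66 within the 6 A3B mice) and Elf1 (0.99; 0.90), Reg3b to Elf1 and Tec, Reg3a and Reg3g both to Vasp and Ikbkg, and Reg1 to Cdc34 (0.99; 0.90), one of the genes that fell on this scale. Reg3d was nearest to Maz (0.97; 0.97). For all but Reg3d these values reflect mainly the difference between controls and A3B mice, which all points share.

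Since 4 genes of one cluster rose together, their start sites were searched for the letters bound by STAT factors, TTCNNNGAA, and for both boxes of the acinar PTF1 complex, CACCTG and TTCCCA, on both strands. The windows were the 300 bases around the start (250 before, 50 after) that RefSeq gives for GRCm38.p6, and all 6 members had one. TTCNNNGAA stood in the windows of Reg3b and Reg3d, 2 of 6, and in 8.3% of 32851 windows of all genes. The matches are shown with the motif in capitals, 5′ to 3′ on the strand of the gene, 30 bases each.
Reg3b, chr6:78370746-78370775 (plus): agcctgttctTTCTTGGAAactctttgagt
Reg3d, chr6:78379084-78379113 (minus): ttacttaagtTTCCCAGAAtctgacacctg
Counted from the start site, the first letter of the motif lay at -129 in Reg3b and at -238 in Reg3d. Reg3b passed the test in the pancreas and Reg3d did not.

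CACCTG stood in the windows of Reg2, Reg3a, Reg3b and Reg3d (4 of 6, against 20.2% of all windows), and TTCCCA or its reverse TGGGAA in those of all members but Reg3b (5 of 6, against 25.6%). In Reg3d a TTCCCA overlaps the TTCNNNGAA printed above. The pair Reg1 and Reg2, whose levels kept together in the A3B mice, carried TTCCCA at -163 and -167 from the start, shown here in capitals. Each window also held a further match, TGGGAA at -212 in Reg1 and TTCCCA at -199 in Reg2.
Reg1, chr6:78425808-78425837 (plus): catctgtgactgTTCCCAgggtgtatcaga
Reg2, chr6:78404976-78405005 (plus): cacctgtgatcaTTCCCAtgatgtccgaga
In the Reg2 window a CACCTG, here in small letters at the left end, precedes the capitals. Reg3a and Reg3g, which kept together with Reg3d at lower levels, carried the reverse form at -76 and -124. A further TGGGAA stood at -247 in Reg3g, and Reg3d held its matches at -238 and -104.
Reg3a, chr6:78380621-78380650 (plus): tgcaagttttgcTGGGAAgttttctgaatg
Reg3g, chr6:78468981-78469010 (minus): tcccgcttttgaTGGGAAacccctagagtc
The start that RefSeq gives for Reg2 is that of Reg2-201, and the start of Reg2-202 had no window. A match of letters is a description and does not show binding.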

How the data were processed

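RNA from pancreas, liver and lung was sequenced by the authors from stranded libraries. The deposited files of set 2 give estimated counts and TPM per transcript, which the authors made with kallisto on mouse transcripts of mm10 (GRCm38); the annotation release is not given in the sources used here. The deposited table of set 1 gives TPM per gene. Transcripts were joined to genes through GENCODE M21 (116640 of 119414 matched, 97.677%), summed, and the estimated counts rounded. The 2774 transcripts without a match were left out.

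Each tissue of set 2 was fitted with edgeR 4.0.16 (quasi-likelihood F test, filterByExpr, TMM, robust; R 4.3.3) over its 8 samples, with Benjamini-Hochberg adjustment over all genes and a threshold of 0.05. Set 1 was tested with limma 3.58.1 on log2(TPM + 1) where a gene averaged 1 TPM or more. The interaction used all 16 samples of set 2. Alternatives were DESeq2 1.42.0, other scalings and filters, limma on TPM, a mouse block and leaving out each sample. Numbers in the titles name mice, so the pairing of liver and pancreas is that of the animal (5 A3B mice and both controls). The count fit was tested before use on simulated data drawn from one mean profile per tissue. That test did not cover a shift in composition like the one between these pancreas groups. The members, lists and tests were chosen with earlier results of these data known. Named list genes are up to 4 per list with the smallest p, plus Il6, Il22, Stat3, Socs3, Extl3 and Reg4. Amy2a5, Cela2a and Clps are among those 4. Gkn3 and the intestinal genes other than Tff3, Lgals4 and Muc2 fall outside this rule. Ctrb1, Try5 and the like named beside a rank or count were chosen after their values were seen. The 3 most alike genes per member were taken among genes averaging 10 TPM or more. Promoter sequences are from RefSeq. Intervals and limits from counts cover counting error only.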

Additional observations from a re-analysis of the deposited data

Results flagged for a closer look

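In A3B livers of set 2, Reg1 in mouse 153 was 67.0 TPM, and the next liver, that of mouse 44, held 24.2 TPM; the gap was 0.639 of the whole range of the 6 livers, above the critical value of 0.625 for a sample that stands apart. Of 12 groups of values examined (6 members in A3B pancreases and livers) this was the 1 that stood out, and chance flags about 1 group in 20. The acinar list was also highest in this liver, at 891 TPM.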

How the results depend on the processing

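In the pancreas, 4 members were called higher with each sample left out in turn (4 to 4) and under DESeq2, all scalings and limma, except that the fit over all 16 samples called 1 and that without A3B 44 and 137 together 3; Reg3d was called higher in addition with totals, library sizes without the acinar list, and limma, and Reg1 with totals and limma. The count of members called lower, 1, was 0 with totals, library sizes without the acinar list, limma on log2(TPM + 1) and on log2(TPM + 0.1) and the fit over all 16 samples, and 0 to 1 with a sample left out (0 without control 45). Reg1 changed sign to 0.77 (totals), 0.087 (library sizes without the acinar list) and 0.79 (limma, both pseudocounts). The settings that added calls of Reg3d and Reg1 called most genes higher. Totals called 13473 of 19123 genes higher, and library sizes without the acinar list 10834 of 19123. Limma called 11401 of 13590 higher on log2(TPM + 1) and 11547 of 13590 on log2(TPM + 0.1).
In the liver of set 2, 1 member (Reg2) was called with DESeq2, totals, library sizes without the acinar list, limma on log2(TPM + 0.1) and the fit over all 16 samples, and 0 to 1 with a sample left out (1 without A3B 49); over its alternatives Reg2 was positive with an adjusted p of 0.0002334 to 0.4522. Fits without control 45 compare Reg3 genes with a group at or near 0 and depend on the prior count.
For pancreas minus liver, the mouse as a replicate block called no member but turned Reg3a, Reg3b and Reg3g to 3.39, 4.17 and 2.35, and totals turned Reg3a to 0.31. Without A3B livers 44 and 153 (chosen after seeing the data), 2 members had a positive difference, and Reg1, Reg3a, Reg3b, Reg3d and Reg3g were 0.79, 9.09, 7.77, 4.01 and 7.88; the A3B livers left hold Reg3 genes at or near 0, so these sizes too depend on the prior count. With a sample left out, Reg2 ranged from -0.15 to 1.95, Reg3a from -5.19 to 2.08, Reg3b from -8.11 to 1.37 and Reg3g from -5.85 to 1.39.
In set 1, leaving out a sample gave 0 to 1 members higher in the liver and 0 to 1 lower in the lung, where Reg3g ranged from -1.67 to 0.17 (0.17 without A3B lung 69, 0.03 without A3B lung 74). The causes were not tested.
Over all genes, 6093 were called in the pancreas (3250 higher, 2843 lower), 13683 with totals (13473 and 210), 11265 without the acinar list, 11553 and 11684 with limma, and 3829 without control 45. In the liver 636 were called, 2344 with DESeq2, 1120 and 1119 with the other scalings, 1041 with limma on log2(TPM + 0.1), 1953 over all 16 samples, 119 without livers 44 and 153 and 73 to 1599 with a sample left out. For pancreas minus liver 2368 were called, 8068 with totals, 3759 with DESeq2, 1616 with the block and 545 to 3405 with a sample left out. In set 1 the liver gave 913 (54 unfiltered, 1 to 1562 with a sample left out) and the lung 5029 (2998 to 4579). The mouse block was the paired analysis. Precision is limited by the 2 control mice and, for Reg3 genes of the liver, by counts at or near 0.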
